A study of Mus musculus with 1298 samples.

Results

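The 8 genes described here are the peroxisome proliferator-activated receptors *Ppara*, *Ppard* and *Pparg*, the retinoid X receptors *Rxra*, *Rxrb* and *Rxrg*, and the coactivators *Ppargc1a* and *Ppargc1b*. They were chosen by name as one receptor and coactivator system, and all 8 were found among the 17634 genes of the 10× table, the 22894 of the Smart-seq2 table and the 22938 of the bulk table. Cells came from *Pax7creER;R26-stop-EYFP* mouse embryos whose mothers received 75 µg of tamoxifen per g of body weight at E9.5, so that YFP marked cells in which *Pax7* had been active around that day and their progeny. YFP+ cells of several pooled embryos, without head, limbs and viscera, were sorted at 3 ages, E12.5 and E14.5 and then E16.5. They were profiled in 1 10× library per day and on 15 Smart-seq2 plates, and 3852 of 3916 cells passed the limits used.

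The 18 bulk libraries carried the same alleles and the same tamoxifen dose. Of these, 12 were wells of Pdgfra+ cells sorted at E14.5 and cultured, 6 in DMEM with serum and 6 in adipogenic differentiation medium (ADM), which was given in 2 steps after the cells were confluent. Its composition is not given in the sources used here, so whether it held a Ppar ligand is not known here. The other 6 were freshly sorted at E16.5, with 4 of Pdgfra+ cells and 2 of Pdgfra-/Cd36+ cells. The labels and the study's methods give that day for all 6, but its results place the sort of the Pdgfra+/Thy1- cells at E14.5, so the day may differ within the fresh Pdgfra+ group. The fresh libraries were technical duplicates and the cultured ones wells, so p-values do not measure the spread between litters. The labels divide each Pdgfra+ group equally between a Thy1+ and a Thy1- gate, but the deposited columns do not show the sign of the gate. Columns whose name has no suffix are called set A here and those with a suffix set B. The suffix is tied to no gate and need not mark the same gate in each group. In the main bulk tests each Pdgfra+ group was fitted with a common mean, without the suffix as a term. The spread behind those p-values thus includes the difference between the sets, beside that between wells or duplicates. The genes of the sort followed the labels of the fresh libraries. Levels are given as CPM, counts per 1000000 counts. In bulk the total of a library was first multiplied by its TMM factor, a scaling between libraries. Bulk CPM are thus not shares of the plain library total, and levels compared between groups depend on this scaling. In single cells CPM use plain totals. *Pdgfra* was at 131.9 to 234.8 CPM in the sorted Pdgfra+ libraries and at 3.61 and 4.61 CPM in the Pdgfra-/Cd36+ ones. In the latter *Cd36* was at 904 and 692 CPM.

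Ppar receptors bind DNA as heterodimers with an Rxr, at paired copies of a short hexamer, and are activated by fatty acids and related lipids. Ppara is best known for driving fatty acid oxidation, Pparg for adipocyte formation, and Ppard for fat use in many tissues including muscle. Ppargc1a and Ppargc1b, which encode the coactivators Pgc1-alpha and Pgc1-beta, dock on these and other nuclear receptors and raise mitochondrial gene expression, a role best studied in brown fat and muscle.

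The hexamer AGGTCA, the binding unit of many nuclear receptors, was looked for on both strands in promoter windows from RefSeq (GRCm38.p6), which were found for 7 of the 8 genes. It lay in the 250 bases before a start for *Pparg*, *Rxra* and *Rxrg*, and these stretches are shown because they belong to genes of the receptor pair itself. They lie at chr6:115360894-115361143 and chr6:115362099-115362348 for starts of *Pparg*, chr2:27709042-27709291 for *Rxra* and chr1:167618015-167618264 for *Rxrg*, all on the + strand, and are printed 5′ to 3′ with the hexamer in capitals (TGACCT where it is on the opposite strand).
Pparg, first start: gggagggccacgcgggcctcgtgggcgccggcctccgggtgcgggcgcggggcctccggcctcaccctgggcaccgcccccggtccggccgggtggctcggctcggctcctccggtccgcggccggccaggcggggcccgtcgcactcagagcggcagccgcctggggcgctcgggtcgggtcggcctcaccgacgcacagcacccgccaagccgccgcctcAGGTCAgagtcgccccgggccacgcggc
Pparg, second start: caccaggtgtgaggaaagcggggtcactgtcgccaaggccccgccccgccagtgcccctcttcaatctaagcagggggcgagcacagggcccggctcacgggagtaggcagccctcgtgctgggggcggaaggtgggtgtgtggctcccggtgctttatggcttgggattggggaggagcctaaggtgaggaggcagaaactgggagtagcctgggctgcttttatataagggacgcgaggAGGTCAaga
Rxra: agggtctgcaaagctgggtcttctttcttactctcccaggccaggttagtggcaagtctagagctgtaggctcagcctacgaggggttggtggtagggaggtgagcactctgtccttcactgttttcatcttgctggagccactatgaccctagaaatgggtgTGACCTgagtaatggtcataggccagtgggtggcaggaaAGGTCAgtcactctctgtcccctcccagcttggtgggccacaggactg
Rxrg: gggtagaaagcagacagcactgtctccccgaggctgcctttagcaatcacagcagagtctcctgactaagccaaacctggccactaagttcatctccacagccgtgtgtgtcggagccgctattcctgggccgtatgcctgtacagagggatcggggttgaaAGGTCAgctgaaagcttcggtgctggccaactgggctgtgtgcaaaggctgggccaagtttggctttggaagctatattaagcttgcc
The hexamer begins at position -28 from the first *Pparg* start, at -9 from the second, at -88 in *Rxrg*, and at -87 and -48 in *Rxra*. It is common, since 5340 of 32851 promoters of the same length hold it (16.3%). The spaced pair AGGTCANAGGTCA (a copy, any base, and a copy again), to which Ppar and Rxr dimers bind, is in 13 promoters (0.0396%) and in none of those of the 8 genes, which says only that these letters are not in these windows.

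In single cells, *Pparg*, *Ppargc1a* and *Ppargc1b* had their highest 10× levels in the brown adipocyte-like (BA-like) cells, and *Rxrg* in the late myogenic-like (LM-like) cells. Classes were named from marker genes, and the 8 genes took no part in the clustering as variable genes. *Pparg* was at 152.9 CPM in BA-like cells, from 79 UMIs (95% Poisson interval 121.03 to 190.5). It was at 15.7 CPM (11.4 to 21.1) in late progenitor-like (LP-like) cells and at 7.38 CPM (3.37 to 14.001) in dermal fibroblast-like (DF-like) cells. Early myogenic-like (EM-like) cells held 1 UMI, and LM-like, early progenitor-like (EP-like), pericyte-like (PE-like), neuron-like (N-like) and neural progenitor-like (NP-like) cells held none. The BA-like interval lay above that of every other class, and those of LP-like and DF-like cells overlapped. For the 42 PE-like cells the upper end of the interval was 22.3 CPM, so that a level like that of LP-like cells was within counting error there. Intervals cover counting error only.

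By share of cells, *Pparg* was seen in 32.1% of BA-like cells (exact binomial 95% interval 24.9% to 39.9%) at a median of 3032 UMIs, and in 5.71% of LP-like cells at 3880. It was seen in none of the N-like cells, with a median of 3313 UMIs, and the limit of 3 counts that a count of 0 allows is 0.670% of those cells (upper end of the exact binomial 95% interval 0.82%). This limits cells with a UMI of *Pparg*, not cells that express it. After thinning to 1000 UMIs a cell, the BA-like share was 15.2%.

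On Smart-seq2 the order of *Pparg* was the same at its top, with 381.4 CPM in 15 BA-like cells, all of which had a count. Next came 54.7 CPM in 15 PE-like cells, 34.03 in LP-like and 9.999 in DF-like cells. A count was seen in 7 of the 15 PE-like cells, but 54.3% of the PE-like count came from 1 cell, so the level rests largely on that cell. LP-like cells were at 56.8 CPM at E14.5 and 15.4 at E16.5. Their plates ranged from 0 to 67.5 CPM at E14.5 and from 12.51 to 17.7 at E16.5, so the ranges of the days overlapped.

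*Ppargc1a* was at 162.6 CPM (129.7 to 201.3) in BA-like cells of the 10× libraries and at most 6.88 CPM, in N-like cells, elsewhere. *Ppargc1b* was at 154.8 CPM (122.8 to 192.7) in BA-like cells, followed by 11.8 CPM (7.81 to 16.995) in EM-like cells. For both coactivators the BA-like interval lay above that of every other class. On Smart-seq2 they were at 163.98 and 102.55 CPM in BA-like cells. Only 1 plate held at least 5 of these cells. Its 8 cells were at 177.3 CPM of *Ppargc1a* and 33.5 CPM of *Ppargc1b*, so the *Ppargc1b* level was uneven among the cells. Among the other classes *Ppargc1a* reached 11.96 CPM in NP-like cells and *Ppargc1b* 10.03 CPM in EM-like cells.

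Of the 15 Smart-seq2 BA-like cells, 11 had a count of *Ppargc1a*, 13 of *Ppargc1b* and 10 of both, beside *Pparg* in every one. In the 10× libraries 25 BA-like cells held both coactivators, 17 *Pparg* with *Ppargc1b* and 14 *Pparg* with *Ppargc1a*. At 10× depth 35 of these cells showed none of the 8 genes and 4 showed as many as 4 of them. The 15 Smart-seq2 cells, with a median of 765610 counts, showed between 1 and 7.

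*Rxrg*, the most tissue-restricted retinoid X receptor, was at 31.015 CPM (20.8 to 44.5) in LM-like cells of the 10× libraries. It was at 13.5 CPM in BA-like, 10.08 CPM (6.46 to 14.997) in EM-like and 9.01 CPM in DF-like cells, and no UMI was found in NP-like cells. The LM-like interval lay above that of EM-like cells, while those of BA-like, EM-like and DF-like cells overlapped. The BA-like interval (5.45 to 27.9, from 7 UMIs) overlapped that of LM-like cells as well, so the order of these classes was within counting error. On Smart-seq2 the levels were 43.1 CPM in LM-like, 27.4 in EM-like and 25.9 in BA-like cells.

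*Ppara*, by contrast, was close to the limit of detection. The 10× libraries held 6 UMIs of it in BA-like cells (11.6 CPM), 5 in DF-like cells (4.10 CPM) and none in the other named classes. On Smart-seq2 it was at 15.99 CPM in BA-like and 8.31 CPM in LM-like cells.

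*Ppard*, *Rxra* and *Rxrb* were spread over all classes. *Ppard* on 10× ranged from 4.01 CPM (1.61 to 8.27) in N-like cells to 24.1 in PE-like cells, with 18.6 CPM (13.9 to 24.5) in LP-like, 7.56 (4.48 to 11.9) in EM-like and 7.74 in BA-like cells. *Rxrb* ranged from 12.1 to 26.9 CPM. *Rxra* ranged from 4.62 to 13.5 CPM outside BA-like cells, where it was at 29.03 CPM (16.2 to 47.9). Smart-seq2 did not repeat this order. There *Rxra* was at 5.57 CPM in BA-like cells, below 17.8 in EP-like and 12.2 in LM-like cells and above 4.58 in PE-like cells. For the LP-like and EM-like classes the *Ppard* intervals do not overlap. The PE-like level of *Ppard* rests on 4 UMIs in 42 cells, and on Smart-seq2 it was 2.83 CPM.

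**Figure D1:**
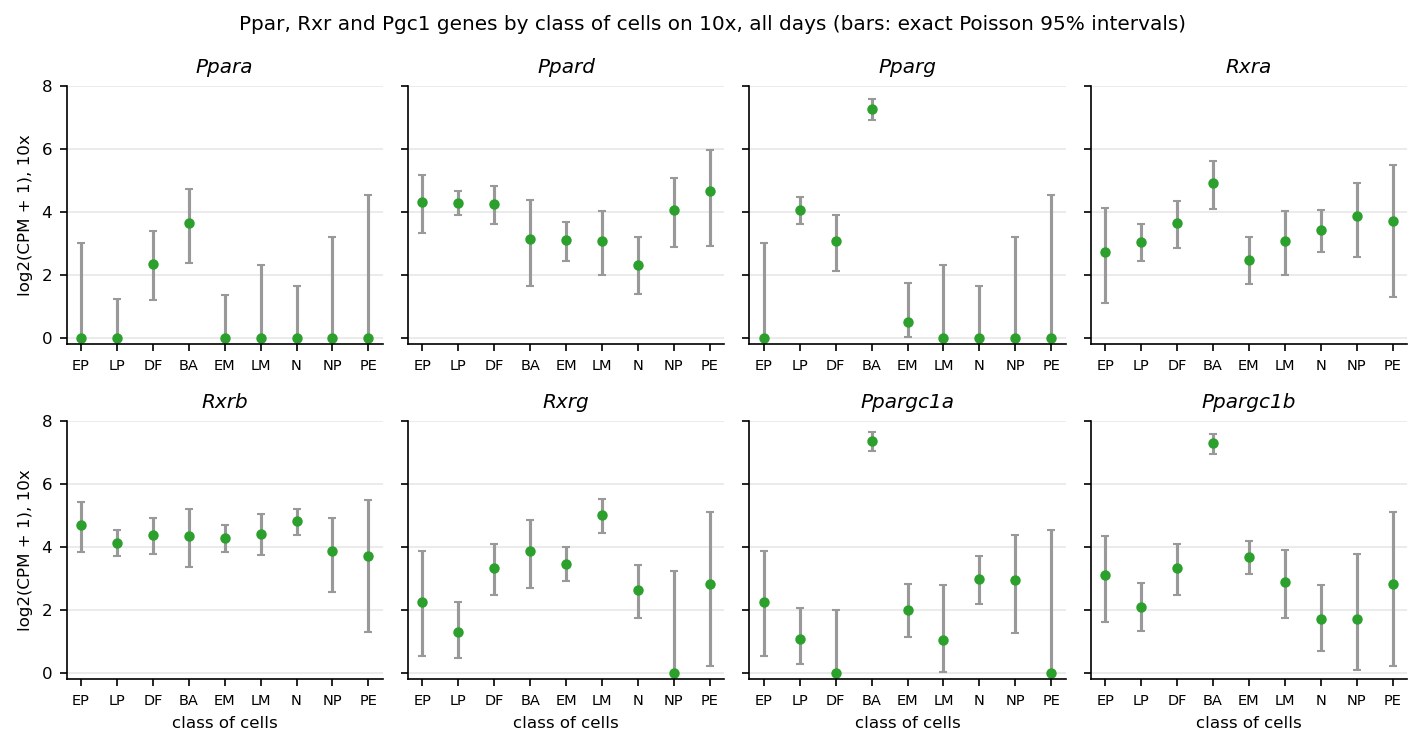
Each panel gives 1 of the 8 genes as log2(CPM + 1) on the vertical axis for the 9 named classes in the 10× libraries of all days, with the point at the level over all cells of a class and the bar its exact 95% Poisson interval (counting error only). *Pparg*, *Ppargc1a* and *Ppargc1b* stand far above the other classes in BA-like cells, at 152.9, 162.6 and 154.8 CPM, and *Rxrg* is highest in LM-like cells at 31.015 CPM.

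The limits on cells, taken from the study and among them 8% on mitochondrial counts, bear on the BA-like class. Together they removed 51 Smart-seq2 cells, all of E16.5, and the part of each limit was not counted. With all deposited cells kept, the Smart-seq2 BA-like level of *Ppara* was 59.6 CPM in place of 15.99 and that of *Rxrg* 67.6 in place of 25.9. This put *Rxrg* above its LM-like level of 44.3 CPM in the same setting and so turned the order of these classes. *Pparg* was then at 464.2 CPM, *Ppargc1a* at 189.1 and *Ppargc1b* at 120.7, each within 1.5 times the level above.

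Among the cells kept, only the 10× library of E16.5 held enough of both the BA-like and the LP-like class for counting, so they are compared there by ratio, with no replicate. In CPM on the genes shared by both platforms, *Pparg* stood at 150 on the BA-like side and 16.8 on the LP-like one (74 and 6 UMIs), a log2 ratio of 3.15 (95% interval 1.963 to 4.65). *Ppargc1a* was at 170 and 2.80 (84 UMIs and 1), a log2 ratio of 5.92 (3.404 to 11.2). *Ppargc1b* was at 161.8 and 14.01 (80 and 5 UMIs), a log2 ratio of 3.53 (2.25 to 5.19).

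The intervals of these 3 ratios exclude 0. Those of *Rxra* at 1.23 (-0.47 to 3.30), *Rxrb* at -0.32 (-1.77 to 1.16) and *Ppard* at -1.64 (-3.79 to 0.20) do not, so that a difference in these receptors was not detectable at this depth. *Ppara* and *Rxrg* had 6 and 7 UMIs on the BA-like side and none on the other, and their log2 ratios against the limit of 3 counts over the LP-like cells were 0.53 and 0.75. With the counting error of both sides the lower ends of the 95% intervals were -0.24 and 0.056, so that a difference in *Ppara* was not detectable. With doublets removed *Rxrg* held 5 UMIs and its lower end was -0.58, so that its difference rests on few counts.

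With all deposited cells kept, the Smart-seq2 cells of E16.5 gave a ratio too, from 60 BA-like cells and with no interval. The log2 ratios were 4.68 for *Pparg*, 4.91 for *Ppargc1a*, 7.42 for *Ppargc1b*, 4.45 for *Ppara* and 5.69 for *Rxrg*. They were 1.21 for *Rxra*, 2.05 for *Rxrb* and -1.02 for *Ppard*, so that only *Rxrb* had the opposite sign to its 10× ratio.

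Between classes present in several pools (1 platform and day each), summed counts were compared with edgeR, with the pool as a block. In LM-like against EM-like cells, 5 pools gave the comparison of differentiating with progenitor muscle cells, and 1 of the 5 genes tested passed an adjusted p of 0.05, where 25.1% of 10000 genes did (10.6% higher). This was *Rxrg*. On 10× its level was 76.2 against 18.3 CPM at E12.5, 19.4 against 9.80 at E14.5, and 81.3 against 0 at E16.5. On Smart-seq2 it was 47 against 37.2 CPM at E14.5 and 36.3 against 6.78 at E16.5. LM-like cells were higher in 5 of 5 pools, by 1.74 ± 0.44 on the log2 scale (SE, edgeR adjusted p = 0.00461). The 81.3 CPM at E16.5 on 10× rest on 6 UMIs from 1 cell. *Ppara*, *Pparg* and *Ppargc1a* had too few counts to be tested here.

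The same gene separated EM-like cells from the progenitor-like cells of the same pool, EP-like and LP-like pooled, in 6 pools. On 10× *Rxrg* was at 18.3, 9.80 and 0 CPM in EM-like and 4.004, 1.77 and 0 in progenitor-like cells, in the order of the days. On Smart-seq2 it was at 53.95, 37.2 and 6.78 CPM against 1.502, 1.23 and 1.29. EM-like cells were higher in 5 of 6 pools and both were at 0 in the other, with a log2 difference of 3.69 ± 0.66 (SE, edgeR adjusted p = 0.00370).

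*Pparg* was lower in EM-like than in progenitor-like cells, at -5.74 ± 1.35 on the log2 scale of the edgeR fit (SE, adjusted p = 0.0135), a call that was lost without the E14.5 10× pool (adjusted p = 0.0514). Its EM-like sums held 0, 1 and 0 counts on 10× and 0, 1 and 100 on Smart-seq2, and the progenitor-like sums held 0, 37 and 6, and 12, 3927 and 1208. Only the E14.5 and E16.5 pools thus carried counts in number, and the 100 counts at E16.5 came from 1 cell. *Ppard* was lower in EM-like cells in 6 of 6 pools, at -1.32 ± 0.38 on that scale (SE, edgeR adjusted p = 0.0295), at 4.58, 7.96 and 11.1 against 20.02, 18.6 and 25.2 CPM on 10×. On Smart-seq2 it was at 0.943, 4.72 and 3.6 against 3.79, 11.49 and 5.62 CPM. Its adjusted p rose to between 0.0668 and 0.105 when any of the 3 10× pools or the E14.5 Smart-seq2 pool was left out. These 3 of the 8 genes passed, where 24.5% of 13884 genes did (10% higher, 14.4% lower). The other 5 did not, among them *Ppargc1b* at 2.02 ± 0.80 (SE, edgeR adjusted p = 0.0897), which passed with DESeq2 (0.0123) and without the E12.5 Smart-seq2 pool (0.00918). In a test of whether the EM-like difference itself changed from E12.5 to the later days none of the 8 passed, where 4.88% of the 13884 genes did, and the lowest edgeR adjusted p was 0.256, for *Ppargc1b* (unadjusted p = 0.0445, the 1 gene of the 8 under 0.05).

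In DF-like against LP-like cells, 1 of the 8 genes passed, where 12.7% of 14125 genes did (5.3% higher, 7.42% lower). *Rxrg* was at 10.85 against 1.77 CPM and 6.865 against 0 on 10× at E14.5 and E16.5, and at 13.3 against 1.23 and 5.855 against 1.29 on Smart-seq2. DF-like cells were higher in 4 of 4 pools, by 2.83 ± 0.72 on the log2 scale (SE, edgeR adjusted p = 0.0282). The call was lost without the E14.5 10× pool (adjusted p = 0.113) or the E16.5 10× pool (0.0702). *Pparg* was lower in DF-like cells at -1.56 ± 0.63 on the log2 scale and did not pass (SE, edgeR adjusted p = 0.147), but did without the E16.5 Smart-seq2 pool (adjusted p = 0.0300). *Ppargc1b* was at 2.23 ± 0.92 (SE, edgeR adjusted p = 0.158) and passed with DESeq2 alone (0.0337).

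**Figure D2:**
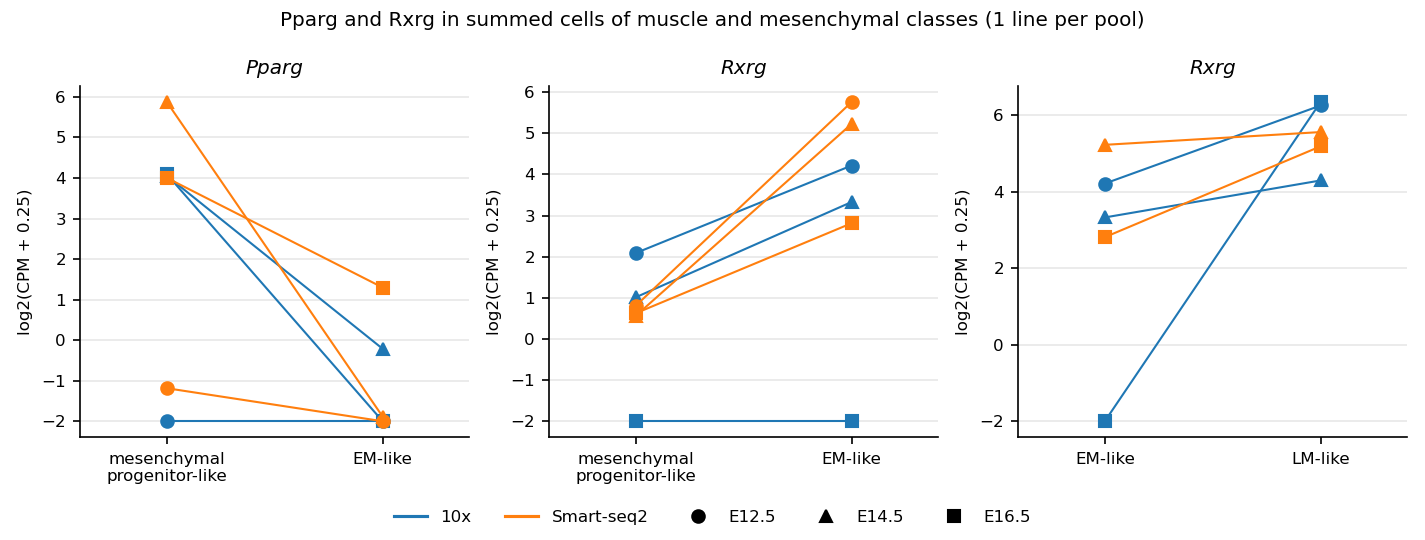
The vertical axes give log2(CPM + 0.25) of summed cells, and each line joins the classes of 1 pool, with color for the platform and marker shape for the day. *Pparg* falls or stays at 0 counts from mesenchymal progenitor-like (EP-like and LP-like) to EM-like sums, and *Rxrg* in LM-like sums lies between 19.4 and 81.3 CPM, above the EM-like sum of its own pool each time.

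N-like cells were set against the progenitor-like cells of the same pool in 4 pools, at E12.5 and E14.5. The genes that passed were 3 of the 8, all lower, where 24.1% of 14410 genes passed (10.3% higher, 13.7% lower). N-like sums held 0, 0, 0 and 2 counts of *Pparg* and progenitor-like sums 0, 37, 12 and 3927 (edgeR adjusted p = 0.00363). For *Ppara* they were at 0, 0, 0.0139 and 0.0105 against 0, 0, 5.33 and 1.964 CPM (edgeR adjusted p = 0.0330).

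For neither gene did the E12.5 10× sums hold a count on either side. Of the *Ppara* counts in Smart-seq2 EP-like cells, 79.5% came from 1 cell, and DESeq2 gave an adjusted p of 0.272. The call was lost as well without the E14.5 10× pool (0.0699). *Ppard* was lower in N-like cells at -2.87 ± 0.70 on the log2 scale (SE, edgeR adjusted p = 0.0272). The adjusted p was 0.0887 without the E14.5 10× pool, 0.0515 without the E12.5 and 0.06005 without the E14.5 Smart-seq2 pool.

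With day, progenitor-like cells of E14.5 and E16.5 held more *Pparg* than those of E12.5, the 1 gene of the 8 that passed where 6.92% of 14128 genes did (5.75% higher, 1.16% lower). The E12.5 sums held 0 UMIs on 10× and 12 counts on Smart-seq2, and the later sums held 37 and 6 UMIs and 3927 and 1208 counts (edgeR adjusted p = 0.000372). Without the Smart-seq2 sum of E12.5 the adjusted p was 0.464, and no gene at all passed. Progenitor-like cells were EP-like at E12.5 and LP-like later, so that class and day cannot be told apart. In EM-like cells none of the 6 genes tested changed with day, where 3.24% of 12389 genes did (2% higher, 1.23% lower). None had an unadjusted p under 0.05, and DESeq2 called none. *Rxrg* there was lower at the later days, at -1.08 ± 0.65 on the log2 scale (SE, edgeR adjusted p = 0.4397), and passed without the E14.5 Smart-seq2 sum, at -2.11 (0.0492). By plate its medians in EM-like cells were 48.4, 40.2 and 7.18 CPM in the order of the days.

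In the sorted bulk libraries, Pdgfra-/Cd36+ cells held more of 7 of the 8 genes than Pdgfra+ cells, where 43.2% of 17545 genes passed the test (21.4% higher, 21.8% lower). *Ppargc1a* was at 276.9 and 239.3 CPM in the Pdgfra-/Cd36+ duplicates and at 2.09, 2.54, 6.52 and 5.27 CPM in the Pdgfra+ libraries, a log2 difference of 6.04 ± 0.45 (SE, edgeR adjusted p = 4.95e-05). *Ppargc1b* was at 78.1 and 85 against 2.39, 3.31, 1.55 and 1.39 CPM, a difference of 5.31 ± 0.35 (SE, edgeR adjusted p = 3.27e-05). For neither did the groups overlap. In bulk, fewer cells of a type and less RNA per cell cannot be told apart.

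Of the receptors, *Ppara* was at 30.2 and 22.7 CPM in Pdgfra-/Cd36+ cells and at 0.634, 0.791, 1.04 and 0.591 CPM in Pdgfra+ cells. The log2 difference was 5.18 ± 0.28 (SE, edgeR adjusted p = 1.52e-05). *Pparg* was at 168.6 and 147.1 against 8.25, 6.50, 12.0 and 12.3 CPM, a difference of 4.08 ± 0.26 (SE, edgeR adjusted p = 2.58e-05).

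Again the groups did not overlap, although Pdgfra+ cells held *Pparg* well above the *Ppara* level. When all 18 libraries shared 1 estimate of spread, the *Pparg* difference was 4.05 with an adjusted p of 0.0633. *Ppard* was at 2.67 and 3.36 CPM in Pdgfra-/Cd36+ cells and at 5.75, 4.78, 3.82 and 3.59 CPM in Pdgfra+ cells. It was the 1 gene of the 8 that did not pass, at -0.51 ± 0.31 (SE, edgeR adjusted p = 0.224), although the groups did not overlap.

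Among the heterodimer partners, *Rxrg* was at 26.96 and 27.6 CPM in Pdgfra-/Cd36+ cells and at 2.76, 2.40, 1.00 and 1.07 CPM in Pdgfra+ cells, a log2 difference of 3.98 ± 0.44 (SE, edgeR adjusted p = 0.000328). *Rxrb*, a broadly expressed partner, was at 18.4 and 22.4 against 6.33, 5.77, 5.27 and 5.25 CPM, a difference of 1.92 ± 0.19 (SE, edgeR adjusted p = 0.000198). *Rxra* was at 15.9 and 17.6 against 8.79, 8.48, 7.31 and 5.27 CPM, a difference of 1.23 ± 0.25 (SE, edgeR adjusted p = 0.00555).

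None of these groups overlapped, and the difference of *Rxra* did not pass without the second Pdgfra-/Cd36+ duplicate (adjusted p = 0.0514). Leaving out any 1 of the other libraries kept these 7 calls. Of all calls, 49.5% were higher in Pdgfra-/Cd36+ cells, and 35.3% were when libraries were scaled by their totals alone, which moved the median of all genes from -0.03 to -0.34. The 7 genes were higher under that scaling too.

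**Figure D3:**
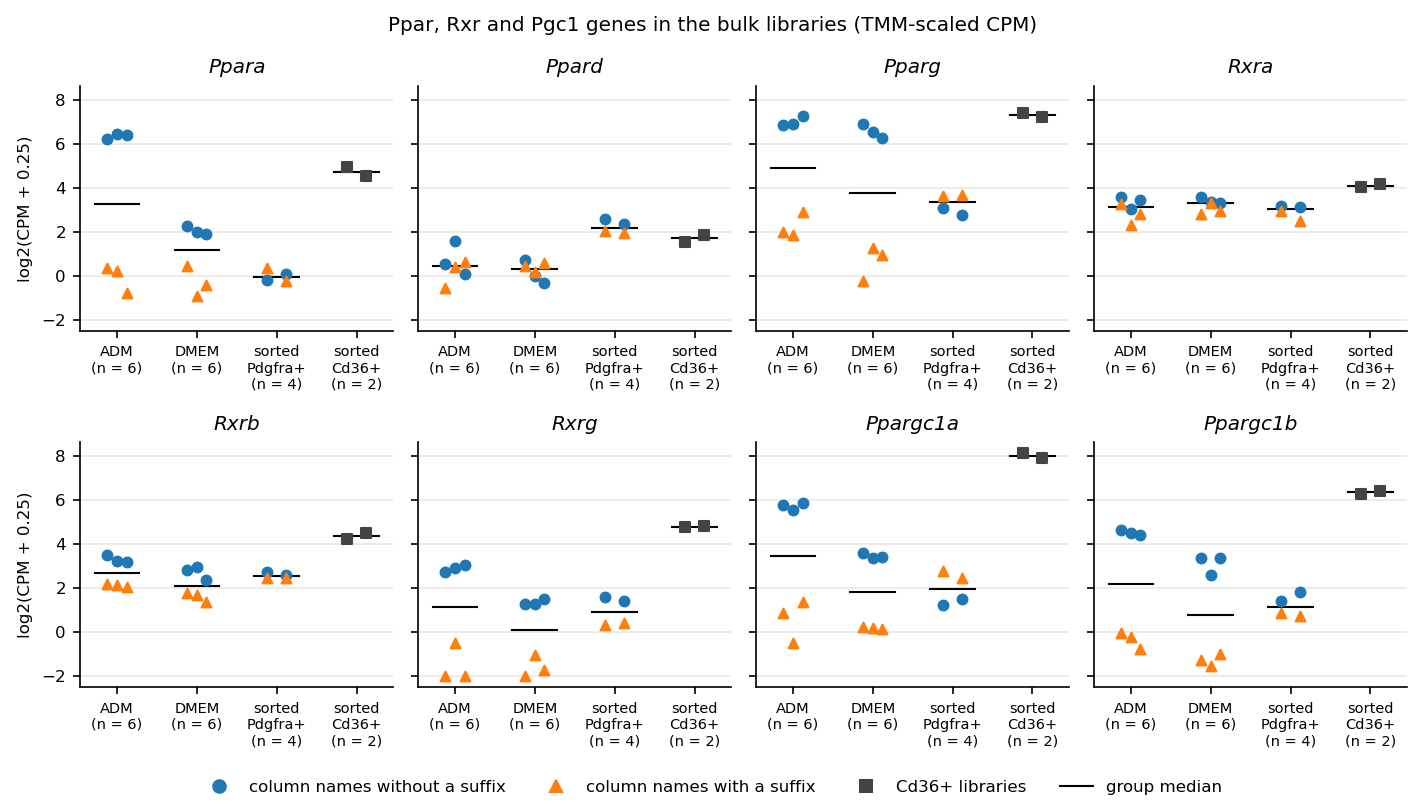
Each panel gives 1 of the 8 genes as log2(CPM + 0.25) in each of the 18 bulk libraries by group, with circles for set A (column names without a suffix), triangles for set B, squares for the Pdgfra-/Cd36+ duplicates (sorted Cd36+) and a line at the group median of these log values. In these duplicates *Ppargc1a* stands at 276.9 and 239.3 CPM and *Pparg* at 168.6 and 147.1, above every sorted Pdgfra+ library.

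Levels between genes can be compared roughly per kilobase of exon, here of all annotated exons together and not of the transcripts expressed. The order depends on this division. Without it *Ppargc1a* had the highest median in Pdgfra-/Cd36+ cells, at 258.1 CPM, and *Pparg* was at 157.9. In Pdgfra-/Cd36+ cells the order of median levels was *Pparg* at 53.5 CPM per kb, *Ppargc1a* at 39.2, *Ppargc1b* at 20.4, *Rxrg* at 11.9, *Ppara* at 6.89, *Rxrb* at 5.15, *Rxra* at 3.07 and *Ppard* at 0.401. No neighbours in that order overlapped between the duplicates. In sorted Pdgfra+ cells *Pparg* also led, at 3.43 CPM per kb, followed by *Rxra* at 1.45 and *Rxrb* at 1.39, and *Ppara* came last at 0.186.

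The ranges of *Rxra* and *Rxrb* overlapped there. In the cultured wells the order differed between the sets. In ADM *Pparg* at 39.1 to 51.4 CPM per kb, *Ppara* at 19.04 to 22.7 and *Ppargc1a* at 7.14 to 8.78 led in set A without overlap. In set B *Ppara* was at 0.085 to 0.263 CPM per kb, below *Rxra* at 0.859 to 1.69 and *Rxrb* at 0.985 to 1.09. In DMEM *Pparg* led in set A at 25.7 to 40.01 CPM per kb, while in set B it was at 0.205 to 0.729, below *Rxra* at 1.22 to 1.76. Reads over *Pparg*, *Ppargc1a* and *Ppargc1b* are less certain than others, since annotated genes overlap all 3 (on the opposite strand only for *Pparg*) and the sources used here do not say whether counting used the strand.

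The genes on which these receptors and coactivators are known to act were taken as 4 lists. Of 24 lipid storage genes tested, 23 were higher in Pdgfra-/Cd36+ than in Pdgfra+ cells, among them *Cd36*, which the sort had selected for and which is thus no finding, with a median log2 difference of 4.85, beside -0.03 over all genes and 4.03 over the 8 genes. Of 19 fatty acid oxidation genes 17 were higher and 1 was lower (median 3.06), and of 23 mitochondrial and thermogenic genes 22 were higher (median 3.31). Of 20 other receptors and coregulators 5 were higher and 5 lower (median 0.09). *Fabp4*, a fatty acid carrier of adipocytes, was higher by 5.66 on the log2 scale and *Adipoq*, which encodes the hormone adiponectin, by 5.83.

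*Cpt1b*, which carries fatty acids into mitochondria in muscle and brown fat, was higher by 6.32 and *Pdk4*, a kinase that spares glucose, by 4.78. *Ucp1*, the uncoupling protein of brown fat, was higher by 6.49 and *Tfam*, a factor of mitochondrial DNA, by 1.51. Each of these 6 genes had an adjusted p of 0.0036 or less in the edgeR test. The largest differences in the lists were those of *Plin5* at 6.96 and *Cidec* at 6.78, both on lipid droplets, *Cidea* at 7.18 and *Dio2*, which activates thyroid hormone, at 7.17. The retinoic acid receptor *Rarg* was lower, at -4.39, and *Prdm16*, a coregulator of brown fat, was higher by 4.02.

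The markers of brown adipocytes summed to between 15240 and 18090 CPM in Pdgfra-/Cd36+ and between 55.8 and 435.4 CPM in Pdgfra+ cells. Those of LP-like cells summed to at least 305.6 with a median of 331.8 against 3825 to 5983 CPM, and those of EM-like cells to between 96.2 and 133.8 against 845 to 2741. Nearly all of the EM-like sum was *Itm2a*, with medians of 113.9 and 1744 CPM. The other EM-like markers, *Pax7*, *Myf5* and *Myod1* among them, had medians of at most 3.07 CPM in either group. The 5 endothelial markers, all with counts, summed to between 54.3 and 62.9 CPM in Pdgfra-/Cd36+ and between 21.1 and 23.4 in Pdgfra+ cells, most of it *Pecam1* with medians of 52.4 and 16.1. Macrophage markers summed to between 4.16 and 5.88 against 6.20 to 10.4 CPM, and red cell markers to between 91.3 and 195.7 against 163.1 to 295.1. Their part in the differences above was not tested.

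**Figure D4:**
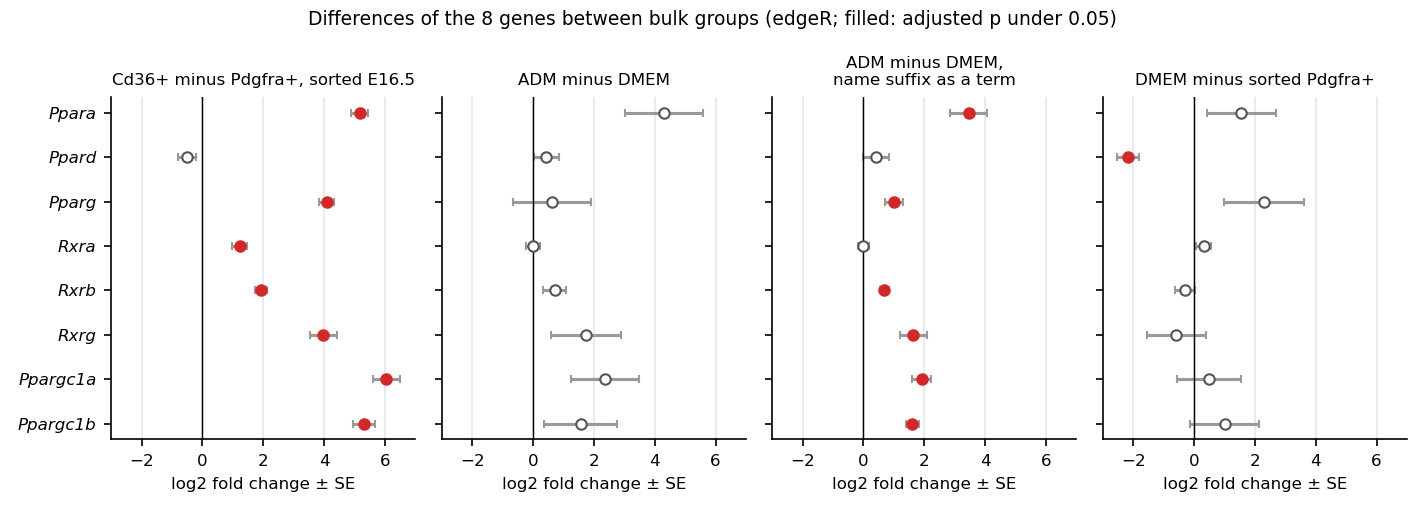
The horizontal axes give the log2 difference of the 8 genes with its standard error from edgeR in the bulk comparisons, the one between media also with the column suffix as a term, and filled points mark an adjusted p under 0.05. In Pdgfra-/Cd36+ (Cd36+) against Pdgfra+ cells 7 genes lie between 1.23 and 6.04, and *Ppard* at -0.51.

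Cultured cells were compared between ADM and DMEM, 6 wells each, to see how the adipogenic medium moved these genes. None of the 8 passed the edgeR test, where 5.69% of 12029 genes did (2.75% higher, 2.94% lower) and 3517 genes, 1 of the 8 among them, had an unadjusted p under 0.05. DESeq2 called 1 of the 8, *Ppara* (adjusted p = 0.00157). *Ppara* in ADM ranged from 0.326 to 87.02 CPM with a median of 37.02, and in DMEM from 0.275 to 4.54 with a median of 2.27. The log2 difference was 4.32 ± 1.28 (SE, edgeR adjusted p = 0.0613).

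The wells of each medium fell apart by set. In ADM *Ppara* was at 73.03, 87.02 and 83 CPM in set A and at 1.01, 0.908 and 0.326 in set B. In DMEM it was at 4.54, 3.74 and 3.45 in set A and at 1.102, 0.275 and 0.501 in set B. The groups thus overlapped as a whole, while within set A every ADM well was above every DMEM well. Across 19 alternatives the adjusted p of *Ppara* lay between 0.00157 and 0.129, and it passed in 6, among them without any single ADM well of set B (adjusted p = 0.033, 0.0377 and 0.0395).

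*Pparg* ranged from 3.33 to 151.8 CPM in ADM (median 61.3) and from 0.606 to 118.2 CPM in DMEM (median 38.99), a log2 difference of 0.62 ± 1.29 (SE, edgeR adjusted p = 0.779). In set A it was at 115.5, 119.7 and 151.8 CPM in ADM and at 118.2, 91.5 and 75.8 in DMEM. In set B it was at 3.75, 3.33 and 7.17 against 0.606, 2.15 and 1.65 CPM. In both media the set A wells lay between 75.8 and 151.8 CPM and set B at or below 7.17, so that the media overlapped.

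*Ppargc1a* ranged from 0.454 to 57.9 CPM in ADM (median 24.7) and from 0.851 to 11.9 in DMEM (median 5.49), a log2 difference of 2.37 ± 1.12 (SE, edgeR adjusted p = 0.181). Set A held 53.5, 47.1 and 57.9 CPM in ADM and 11.9, 10.0 and 10.3 in DMEM. Set B held 1.59, 0.454 and 2.28 CPM in ADM and 0.937, 0.871 and 0.851 in DMEM, so that 1 ADM well lay below every DMEM well of its set. *Ppargc1b* ranged from 0.326 to 24.8 CPM in ADM and from 0.0916 to 9.98 in DMEM, with 24.8, 22.6 and 20.9 against 9.91, 5.67 and 9.98 CPM in set A and 0.721, 0.605 and 0.326 against 0.165, 0.0916 and 0.25 CPM in set B. Its log2 difference was 1.57 ± 1.21 (SE, edgeR adjusted p = 0.406).

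Of the partners, *Rxrg* held 6.44, 7.32 and 7.91 CPM in ADM and 2.17, 2.18 and 2.58 in DMEM in set A, and was at most 0.454 CPM in set B of either medium (log2 difference 1.74 ± 1.14, edgeR adjusted p = 0.328). *Rxrb* ranged from 3.91 to 11.0 CPM in ADM and from 2.30 to 7.42 in DMEM (0.71 ± 0.37, edgeR adjusted p = 0.224). *Rxra* ranged from 4.69 to 11.7 and from 6.67 to 11.8 CPM (0.01 ± 0.23, edgeR adjusted p = 0.982). *Ppard* ranged from 0.433 to 2.72 and from 0.538 to 1.39 CPM (0.44 ± 0.42, edgeR adjusted p = 0.507), and the media overlapped for each of these genes.

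With the suffix as a term, an alternative chosen after the data were seen, 6 of the 8 genes were higher in ADM. Of 12589 genes 33% passed (17.8% higher, 15.2% lower). The log2 differences were 3.46 ± 0.62 for *Ppara* (adjusted p = 0.0027), 1.01 ± 0.30 for *Pparg* (0.0216), 1.91 ± 0.31 for *Ppargc1a* (0.00173) and 1.60 ± 0.22 for *Ppargc1b* (0.000633). They were 0.69 ± 0.16 for *Rxrb* (0.00817) and 1.64 ± 0.45 for *Rxrg* (0.0159), each with its SE and edgeR adjusted p. *Ppard* at 0.40 (adjusted p = 0.497) and *Rxra* at -0.01 (0.967) did not pass. The fit gives each gene a common difference for both sets. Among the genes that passed, the media overlapped within set B for *Ppara*, *Ppargc1a* and *Rxrg*, and within set A for *Pparg*. Whether the difference between the media itself varied with the set was not tested.

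Scaling also mattered here. Of the calls between the media 48.3% were higher in ADM, against 37.3% under upper-quartile scaling and 11.2% when libraries were scaled by their totals. The latter moved the median of all genes from 0.01 to -0.38 and put *Pparg* at -0.36 and *Ppard* at -0.15, neither past the threshold.

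In ADM against DMEM, 4 of 24 lipid storage genes were higher (median log2 difference 3.397), 5 of 19 fatty acid oxidation genes (3.82), 1 of 21 mitochondrial and thermogenic genes (2.33) and 0 of 19 other receptors and coregulators (0.07). Beside these counts 2.75% of all genes were higher, with a median of 0.01 over all genes and 1.14 over the 8 genes. With the suffix as a term the counts were 24, 17 and 18 of the same lists, and 4 higher and 4 lower among the coregulators, where 17.8% of all genes were higher and 15.2% lower. *Angptl4*, a lipase inhibitor that is a classical Ppar target, was higher by 4.44 (edgeR adjusted p = 0.0221) and *Elovl3*, a fatty acid elongase of brown fat, by 13.4 (0.0168), a fitted value that rests on DMEM levels of at most 0.249 CPM. The call of *Elovl3* was lost without the third DMEM well of set A (adjusted p = 0.0544), and that of *Angptl4* without that well (0.0606) or the first (0.0542) or second (0.0516) DMEM well of set B.

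*Scd1*, a fatty acid desaturase, was higher by 6.50 (edgeR adjusted p = 0.0444) and *Pdk4* by 5.00 (0.0449). Both calls were lost when any of 9 wells was left out. *Fabp4* at 3.49 (0.302), *Adipoq* at 2.54 (0.444), *Cpt1b* at 4.76 (0.139) and *Tfam* at 0.50 (0.299) did not pass. *Ucp1* had no test result here, since it did not pass the filter on low counts. Its median over the wells of both sets was 965.4 CPM in ADM and 0.0359 in DMEM. A median of 6 wells is the midpoint of the middle wells, so it need not be near the level of any well. Markers of brown adipocytes summed to between 2110 and 146100 CPM in ADM and between 1.05 and 36080 in DMEM, and their part in these differences was not tested.

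**Figure D5:**
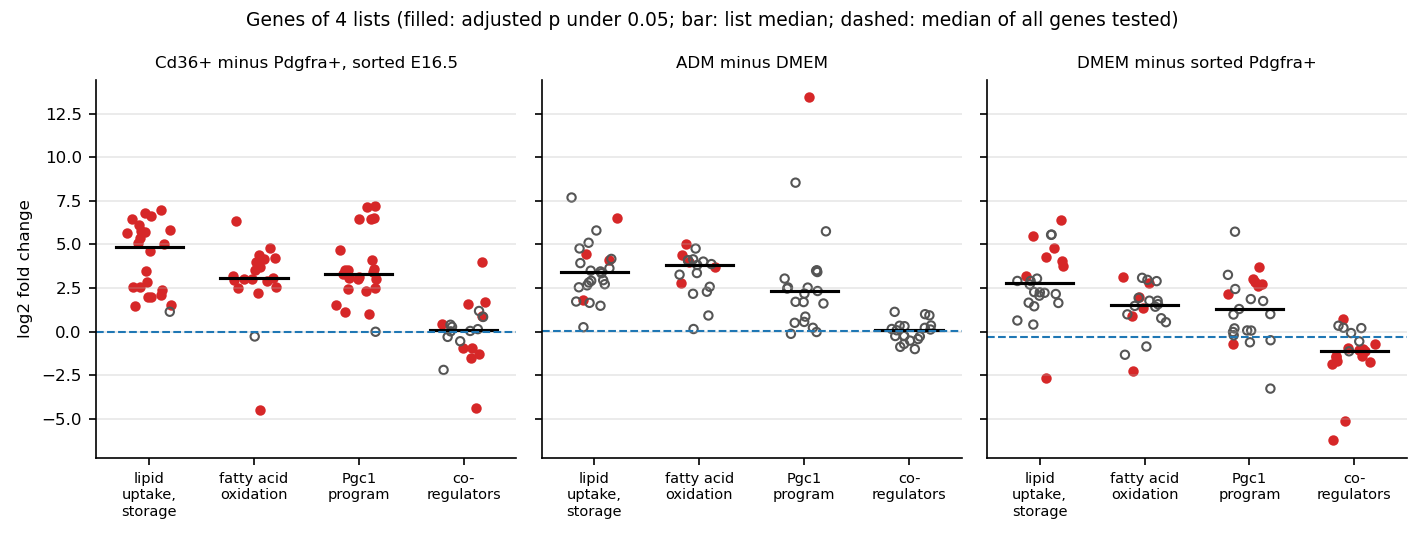
Each point is the log2 difference of 1 gene of the 4 lists in a bulk comparison (Pgc1 program stands for the mitochondrial and thermogenic genes), filled where the adjusted p was under 0.05, with a bar at the median of the list and a dashed line at that of all genes tested. In Pdgfra-/Cd36+ (Cd36+) against Pdgfra+ cells the median of the lipid storage list stands at 4.85 and that of the coregulators at 0.09.

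Pdgfra+ cells cultured in DMEM from E14.5 were last set against freshly sorted Pdgfra+ cells of E16.5, where culture and day cannot be told apart. Of the 8 genes 1 passed, where 53.9% of 17586 genes did (20.2% higher, 33.6% lower). *Ppard* was at 0.538 to 1.39 CPM in the cultured wells (median 0.986) and at 3.59 to 5.75 CPM in the fresh libraries, so that the groups did not overlap. It was lower at -2.16 ± 0.36 on the log2 scale (SE, edgeR adjusted p = 0.000104), and passed in 16 of 16 alternatives, with values between -3.50 and -2.01.

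*Pparg* was at 2.30 ± 1.32 (SE, edgeR adjusted p = 0.151) and overlapped, since set B of the cultured wells lay below the fresh libraries and set A above them. Of all calls 37.5% were higher in culture, and 5.75% when libraries were scaled by their totals, which moved the median of all genes from -0.31 to -1.65. Under that scaling *Rxra* and *Rxrb* passed as lower too, at -1.04 and -1.65, while *Rxra* was at 0.31 and *Rxrb* at -0.30 otherwise, neither of them passing.

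Of the lists, 7 lipid storage genes were higher and 1 lower of 24 (median 2.80), 5 and 1 of 20 fatty acid oxidation genes (1.52) and 6 and 1 of 23 mitochondrial and thermogenic genes (1.29), while 1 was higher and 13 lower of 20 coregulators (-1.09). Of all genes 20.2% were higher and 33.6% lower, with a median of -0.31. *Fabp4* was higher by 6.41 (edgeR adjusted p = 0.0441) and *Agpat2*, of triglyceride synthesis, by 5.50 (0.0177), and the call of *Fabp4* was lost when any of 7 of the 10 libraries was left out (adjusted p up to 0.1). *Rarb*, a retinoic acid receptor, was lower at -6.25 (1.1e-05) and *Nr4a1*, an immediate early nuclear receptor, at -5.16 (1.11e-06). *Adipoq* was at 5.56 (0.0727) and did not pass, nor did *Cpt1b*, *Pdk4*, *Ucp1* or *Tfam*. The call of *Fabp4* was lost too when only the 10 libraries compared were fitted (0.0611), and *Ucp1* passed there at -3.22 (0.0129).

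Markers of other cells differed between these groups as well. Those of pericytes summed to between 13590 and 24250 CPM in the DMEM wells and between 162.9 and 316.8 in the fresh libraries. Nearly all of the sum in the wells was *Acta2*, with medians of 19540 CPM there and 31.1 in the fresh libraries. The median of *Pdgfrb* was higher in the wells too, at 88.75 against 66.87 CPM. Those of *Rgs5*, *Cspg4*, *Kcnj8*, *Abcc9* and *Ndufa4l2* were lower. EM-like markers summed to between 385.7 and 941.7 against 845 to 2741 CPM, with *Pax7* and *Myf5* at 0 in the wells. Nearly all of that sum was *Itm2a*, with medians of 518.2 and 1744 CPM. Red cell markers summed to between 0.0623 and 0.671 CPM against 163.1 to 295.1, and macrophage markers to between 0.125 and 0.861 against 6.20 to 10.4 CPM. Brown adipocyte markers summed to between 1.05 and 36080 CPM in the wells and between 55.8 and 435.4 in the fresh libraries. Their part in the differences between wells and fresh libraries was not tested.

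Over the 18 bulk libraries, about 9025 genes with a mean of at least 5 CPM were ranked by Pearson's r of log2 CPM with each of the 8 genes, as a description. The libraries share the sets and groups above, which largely order any gene that is high in some of them. The most alike were *Car13*, *Klb* and *Acvr1c* for *Pparg* (r between 0.962 and 0.965) and *Foxred1*, *Prkar2b* and *Nampt* for *Ppara* (0.986 to 0.987). For *Ppargc1a* they were *Itpk1*, *Blvrb* and *Abcb8* (0.979 to 0.984) and for *Ppargc1b* *Rasl12*, *Stard7* and *Abhd11* (0.969 to 0.970). *Arrb1*, *Emg1* and *Itprid2* ranked first for *Rxrg* (0.963 to 0.970) and *Cep295*, *Pdss1* and *Tfam* for *Rxrb* (0.951 to 0.967). For *Ppard* the first was *Ireb2* at 0.947 over 18 libraries and 0.793 over the 12 cultured ones, and for *Rxra* it was *Fem1a* at 0.896 and 0.813.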

How the data were processed

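Whole-transcriptome RNA was measured in single cells and in 18 bulk libraries. The 10× table, as deposited by the authors, holds UMI counts from Cell Ranger, and the Smart-seq2 table holds the expected counts that the authors estimated with kallisto 0.44.0 and tximport. The bulk table was deposited as whole-number counts, and its counter is not given in the sources used here. The build was mm10. None of the tables was normalized, and no column of per-sample values was left unused.

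Cells were kept by the limits of the study, a YFP count above 0, at most 8% mitochondrial counts, at least 4000 genes for Smart-seq2 cells and no more than 15000 UMIs for 10× cells. The 10× libraries share 3 barcodes. The kept cells were integrated and clustered with Seurat 5.3.0 (2000 variable genes without the 8 genes, 30 components, resolution 0.8). A cluster was named from marker genes by thresholds set after its scores were seen, and 1 cluster stayed unnamed. Cells at the borders of the classes moved when the arithmetic library was changed, so 1 processor setting was fixed. Scrublet in scanpy 1.11.5 called 8, 8 and 6 doublets in the 10× libraries, which were kept in the analysis.

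Counts were summed per class and pool where at least 20 cells were present, on the 15147 genes of both tables, with Smart-seq2 sums rounded. Sums and bulk counts were tested with edgeR 4.0.16 in R 4.3.3 (filterByExpr, TMM, quasi-likelihood test, Benjamini-Hochberg over all genes tested). Bulk totals lay between 3390851 and 35332908 counts, and TMM factors between 0.4157 and 2.0792, so CPM of low genes in the shallower libraries rest on fewer reads. The procedure was tested on simulated data. Bulk libraries were grouped by medium and sort, since 16 of them cannot be tied to the sign of their Thy1 gate, and the planned comparisons of Thy1 gates were not run. The fits by medium and sort replaced them after the columns were read.

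Levels per kb divide CPM by the exon bases of the GRCm38 annotation. Promoters come from RefSeq. Genes named are the 8 genes, *Fabp4*, *Adipoq*, *Ucp1*, *Pdk4*, *Cpt1b* and *Tfam*, and up to 2 genes per list and bulk comparison with the largest differences among those past the threshold. *Angptl4*, *Prdm16* and the markers fall under the lists, and 1 item is not reported here. The 8 genes and the lists were chosen with earlier results of these data known. Alternatives were DESeq2 1.42.0, no filter, upper-quartile scaling and library totals, other clusterings, all deposited cells, doublets removed, other samples in the fit, a term for the column suffix, and each library or pool left out.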

Additional observations from a re-analysis of the deposited data

Results flagged for a closer look

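The Smart-seq2 plates of a class and day with at least 5 cells were compared for each of the 8 genes, in 54 groups of 4 to 7 plates. In 14 groups the highest plate stood apart from the others by Dixon's 95% critical value. For normal values chance gives this in about 1 of 20 groups, but many of these plates were at or near 0. A group in which only 1 plate has a count is flagged by construction. The 14 groups therefore cannot be set against that rate. Whether the plates of a day came from the same pool of embryos is not given in the sources used here. In EM-like cells the highest plate was at 5.49 CPM of *Ppara* and 9.61 CPM of *Pparg* at E16.5. At E12.5 the highest EM-like plate was at 6.41 CPM of *Ppard*, 20.1 CPM of *Ppargc1a* and 106.6 CPM of *Rxra*, the last beside a median of 17.6 CPM. In N-like cells of E14.5 it was at 0.037 CPM of *Ppara* and 0.0878 CPM of *Pparg*.

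In EP-like cells of E12.5 the highest plate was at 1.79 CPM of *Pparg*, 4.53 CPM of *Ppargc1a*, 16.6 CPM of *Ppargc1b* and 12.7 CPM of *Rxrg*. At E16.5 it was at 20.6 CPM of *Rxra* in LM-like, 12.7 CPM of *Ppargc1a* in DF-like and 2.70 CPM of *Ppargc1b* in LP-like cells. The cause of these high plates was not tested. None of the 24 groups of bulk libraries tested stood out in this way.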

How the results depend on the processing

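The planned comparisons between Thy1 gates were not run, since the columns do not show the gate, and the bulk alternatives below were chosen after seeing the data. Depth limits the 10× levels, where most values of these genes rest on fewer than 30 UMIs, and pools were few. Over all alternatives, 822 values of the 8 genes in tests kept direction and side of the threshold, 32 changed sign, 18 passed and 15 no longer passed. Of the class levels 711 stayed within the interval or spread and 9 moved.

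The share of tested genes that passed is given here for each direction. ADM against DMEM, with 2.75% higher and 2.94% lower, gave 14.07% and 7.44% with DESeq2, 17.84% and 15.19% with the suffix as a term, and 5.213% and 3.94% with all 18 libraries. Without a filter 0.468% were higher, and 0.333% with library totals. Leaving out each library gave 0.136% to 8.26% higher and 0.384% to 5.396% lower, lowest without the third DMEM well of set A and highest without the first ADM well of set B. The share higher moved by over 1.5 times without any of the 12 wells. *Rxra* changed sign at -0.10 without a filter, -0.076 with upper quartiles, -0.52 with library totals, -0.012 with the suffix, -0.037 with all 18 libraries, and between -0.11 and 0.13 when libraries were left out. With library totals *Ppard* was at -0.15, *Pparg* at -0.36 and *Tfam* at -0.093.

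The replicate number as a block left 0% higher and 0% lower between the media, with 3032 genes at an unadjusted p under 0.05, and *Rxra* at -0.032. The numbers showed no pairing of the cultured wells. Of 18 pairs of these wells none had a correlation of deviations over 0.1 (-0.11 to 0.07), and 2 of 6 sorted pairs did (-0.08 to 0.20). Duplicates deviate from their mean by equal and opposite amounts, so these 2 pairs give the same value. Whether the sorted libraries are paired is thus not settled. The block called 6876 genes between the sorted groups.

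Pdgfra-/Cd36+ against Pdgfra+, with 21.4% higher, gave 13.84% with all 18 libraries, and 12.44% to 20.61% higher and 13.08% to 21.63% lower when libraries were left out, lowest without the second Pdgfra-/Cd36+ duplicate. DMEM against fresh cells gave 4.053% higher and 66.46% lower with library totals, where *Ppargc1a* was at -0.88, *Ppargc1b* at -0.37, *Rxra* at -1.04 and *Tfam* at -1.30. *Tfam* lay between -0.089 and 0.16 when libraries were left out.

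With DESeq2, N-like against progenitor-like sums gave 16.21% higher and 20.61% lower, and the later days gave 3.064% lower in progenitor-like and 2.171% lower in EM-like sums, where *Rxrb* was at -0.044. Leaving out each pool gave 5.226% to 9.885% higher and 8.715% to 12.54% lower for LM-like against EM-like sums. It gave 2.719% to 8.304% higher and 3.388% to 9.851% lower for DF-like against LP-like, 5.042% to 19.25% and 7.661% to 20.4% for EM-like and 4.774% to 9.454% and 3.652% to 14.1% for N-like against progenitor-like sums. For the later days it gave 0% to 10.73% and 0% to 4.137% in progenitor-like and 0% to 4.078% and 0% to 3.627% in EM-like sums. The first 4 comparisons were lowest without the E14.5 10× pool, and EM-like against progenitor-like sums highest without the E12.5 Smart-seq2 pool. The comparisons of days gave 0% without the E12.5 Smart-seq2 sum and the most without that of E14.5.

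Values that changed sign when a pool was left out never passed the threshold. *Ppard* lay between -0.58 and 0.10 for DF-like against LP-like and *Rxra* between -0.35 and 0.034 for EM-like against progenitor-like sums. For the later days in progenitor-like sums *Ppargc1a* lay between -1.28 and 1.59, *Ppargc1b* between -1.76 and 0.029, *Rxra* between -0.81 and 0.77, *Rxrb* between -0.66 and 0.14 and *Rxrg* between -0.55 and 0.17. In EM-like sums *Ppargc1a* lay between -0.76 and 0.20, *Ppargc1b* between -0.18 and 2.72 and *Rxrb* between -0.14 and 0.23. *Rxrg* in progenitor-like sums was also at 0.023 at resolution 1.2, and *Rxrb* at 0.017 without doublets. The cause of these changes was not tested.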

Other observations

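Within the LP-like class *Pparg* differed between clusters. It was at 21.3 CPM on 10× and 46.45 CPM on Smart-seq2 in one cluster and at 17.2 and 34.5 CPM in a second, but at 0 and 2.02 CPM in the third. DF-like cells showed the same kind of spread, with 26.04 and 19 CPM in one cluster and 0 on 10× in the other two, which were at 3.04 and 2.99 CPM on Smart-seq2. These clusters were made from the same cells, so the values are a description with no test.

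The cultured wells, whose Thy1 gate is not known from their columns, fell into separate clusters by column suffix in the level of *Cd36*, a fatty acid carrier and Ppar target. In ADM it was at 9549, 9326 and 11170 CPM in set A and at 114.3, 139.2 and 128.4 CPM in set B. In DMEM it was at 604, 286.7 and 346.7 CPM in set A and at 0.551, 0.458 and 0.150 CPM in set B. *Pdgfra* lay between 9.49 and 11.7 CPM in set A and between 81.2 and 105.6 CPM in set B in ADM, and between 42.9 and 71.2 CPM and between 99.2 and 110.6 CPM in DMEM. *Ppara*, *Pparg*, *Ppargc1a*, *Ppargc1b*, *Rxrb* and *Rxrg* were higher in every set A well than in every set B well of the same medium, and *Rxra* and *Ppard* were not. No test was made between the sets.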
